A study of Mus musculus with 6 samples.

Results

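The 10 genes described here encode the machinery that attaches and removes the ubiquitin-like protein ISG15, and a group of interferon-induced poly(ADP-ribose) polymerase (PARP) genes. They were chosen by name as Isg15, Uba7, Ube2l6, Herc6, Usp18, Parp9, Dtx3l, Parp10, Parp12 and Parp14. All 10 were found among the 43043 genes listed for each sample, and all 10 were among the 14419 genes with enough reads to be tested. RNA came from D4M-3A cells, a mouse melanoma line that makes the NF-κB co-factor IκBζ constitutively, and was read by paired-end sequencing. The 3 Ctrl samples carried an empty CRISPR-Cas9 construct and the 3 Nfkbiz KO samples a construct against Nfkbiz, the gene of IκBζ. Both were delivered by lentivirus with puromycin selection, both groups grew in serum-containing medium with no treatment named, and the sources used here do not say whether the knockout cells were 1 clone or a pool. Each condition comprised 3 experiments that the study calls independent.

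ISG15 is a small protein that type I interferon induces strongly, and that is either secreted or joined to lysines of other proteins in a cascade resembling that of ubiquitin. UBA7 activates ISG15, UBE2L6 carries it, HERC6 is the main ligase in mouse cells, and USP18 cleaves it off again and also binds the interferon receptor to dampen its signal. PARP9, PARP10, PARP12 and PARP14 belong to the PARP family, whose active members use NAD to mark proteins with ADP-ribose. DTX3L, a ubiquitin ligase, works as a partner of PARP9, and their genes lie head to head.

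The promoter of Isg15 holds letters that match the interferon-stimulated response element (ISRE), through which type I interferon is known to act. RefSeq promoter windows of build GRCm38.p6, from 250 bases before to 50 bases after the annotated start, were at hand for 6 of the 10 genes, namely Isg15, Uba7, Ube2l6, Herc6, Dtx3l and Parp12. Usp18, Parp9, Parp10 and Parp14 were not among them. The ISRE core, 2 GAAA blocks with any pair of bases between them, was searched on both strands and was found in 1 of the 6 windows, that of Isg15, where 3 overlapping copies lay between 78 and 57 bases before the start. Of 32851 mouse promoter windows of the same length, 3.44% held this core. The stretch is shown because it is the only match among these genes, on the minus strand at chr4:156200871-156200900, 5′ to 3′ along the gene, with the bases of the 3 copies in capitals.
Isg15: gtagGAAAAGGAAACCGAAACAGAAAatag
An NF-κB-type site, GGGA and TTCC with any pair of bases between them, was found in none of the 6 windows, against 1.47% of all windows. These are matches of letters in a short window and say nothing about binding.

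The targeted gene was lower in every knockout sample. Nfkbiz had 69.1, 75.2 and 63.4 TPM in Ctrl replicates 1, 2 and 3, and 34.8, 34.7 and 35.1 TPM in the Nfkbiz KO replicates. TPM is a transcript level corrected for length and scaled to the same total in every sample, so that it can be compared between genes. The log2 fold change from reads was -0.98 ± 0.056 (SE; edgeR adjusted p = 6e-08). The study checked the loss of IκBζ protein by immunoblot, and RNA levels do not measure this loss. Between 32219900 and 44927203 reads per sample were counted on genes, and the first principal component, with 61.8% of the variance, separated the groups. Melanocyte lineage markers were nearly absent, since 7 of 8 stayed under 1 TPM in every sample and Sox10 and Tyr had no reads. Of 8 leukocyte markers, all stayed under 1 TPM in every sample, with a summed level of 0.0151 to 0.221 TPM in Ctrl and 0.107 to 0.183 TPM in Nfkbiz KO. All 4 epithelial markers stayed under 1 TPM as well, whereas 4 of 5 fibroblast markers reached it in at least 1 sample, with summed levels of 582 to 657 TPM in Ctrl and 475 to 512 TPM in Nfkbiz KO. The 4 endothelial markers summed to 0.55 to 0.827 TPM in Ctrl and to 1.32 to 1.85 TPM in Nfkbiz KO, mostly from Cdh5. The part of these markers in the results was not tested.

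All 10 genes rose in Nfkbiz KO cells. In these bulk samples, more cells with a transcript and more of it per cell cannot be told apart. The increases were modest, from a log2 fold change of 0.28 for Isg15 to 0.96 for Herc6, with a median of 0.65, where the median of all genes tested was -0.02. Each of the 10 passed an adjusted p of 0.05 (edgeR quasi-likelihood test on read counts, Benjamini-Hochberg adjustment over all genes tested), and 0 were lower. Among all genes tested, 36.6% passed, with 18.2% higher and 18.4% lower. A log2 fold change above 0, at any p, was found for all 10 genes and for 47.6% of all genes tested. In all 10 the normalized values of the 3 Nfkbiz KO samples lay above those of the 3 Ctrl samples, which held for 23.9% of all genes tested, and the reverse for 24.5%. For each of the 10 genes an exact permutation test, two-sided, gave p = 0.1, and with 3 samples per group no smaller p can be reached. None of the 10 reached the thresholds of the study, namely more than a 2-fold change with a difference above 4, taken here as TPM, at the same adjusted p. Among all genes tested, 1.79% did, 0.756% in the upward direction. At a less stringent fold change of 1.5 and adjusted p of 0.1, with no difference cut-off, 7 of the 10 passed. Of all genes tested, 12.6% did, and 5.81% did so upwards. The 3 of the 10 that did not were Isg15, Parp9 and Parp10. The looser rule of the study, used there for cytokine and chemokine genes, names p without saying adjusted. With any 1 sample left out, all 10 remained higher at an adjusted p of 0.05 or less (edgeR).

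**Figure D1:**
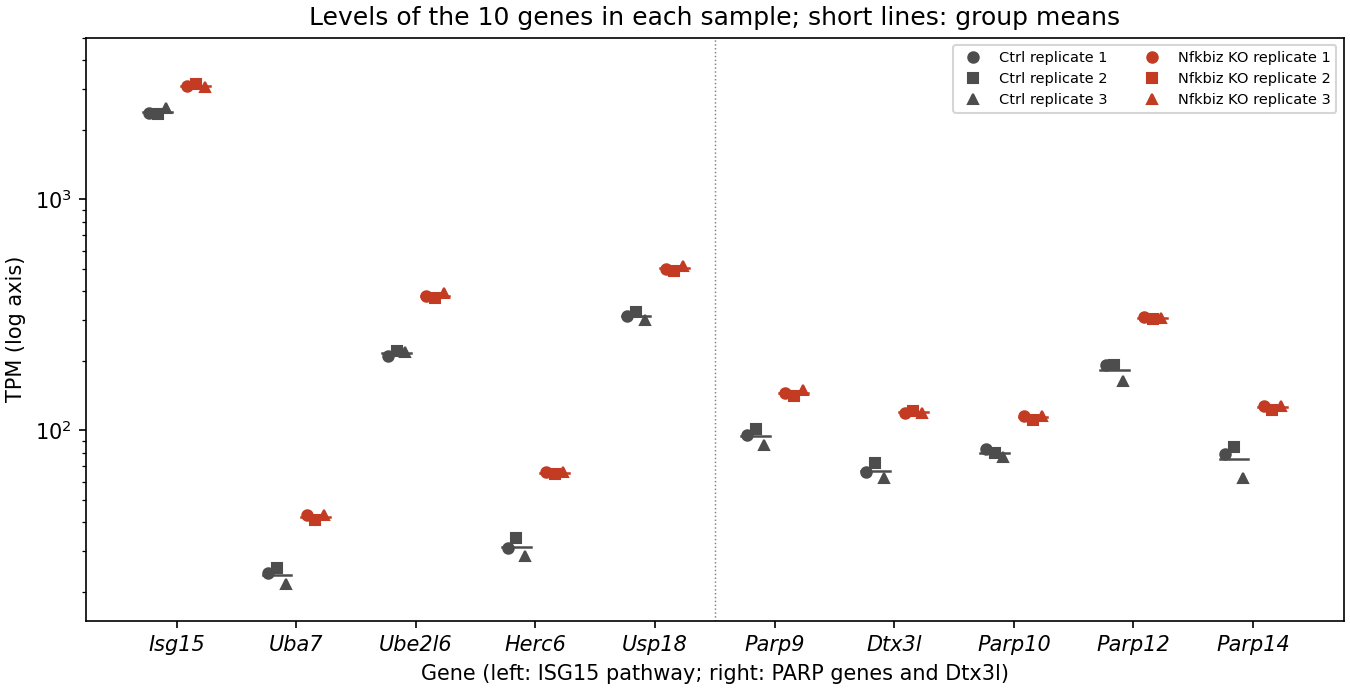
TPM on a log axis of the 10 genes in each of the 3 Ctrl (grey) and 3 Nfkbiz KO (red) samples, with replicate numbers as marker shapes and group means as short lines. In every gene the 3 Nfkbiz KO samples lie above the 3 Ctrl samples, and Isg15 lies far above the other genes in both groups, at 2386 TPM on average in Ctrl and 3101 TPM in Nfkbiz KO.

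The modifier itself was the most abundant of these transcripts and had the smallest log2 fold change. Isg15 (chromosome 4, 156283883 to 156285303 on the minus strand of GRCm39) had 2351, 2328 and 2479 TPM in Ctrl and 3104, 3148 and 3052 TPM in Nfkbiz KO. The groups did not overlap, and the coefficient of variation was 3.41% in Ctrl and 1.54% in Nfkbiz KO. Its log2 fold change from reads was 0.28 ± 0.064 (SE; edgeR adjusted p = 0.0047), or 1.21-fold with a 95% confidence interval from 1.1 to 1.34. In normalized reads, Ctrl replicate 3 was the highest of its group, with 545 reads on the CPM scale, which sets every library to the same total, beside 493 and 464 CPM, and without it the log2 fold change was 0.34. On log2(TPM + 1) the difference was 0.38 (limma).

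The activating and carrier enzymes of ISG15 rose with confidence intervals above that of Isg15. Uba7, the activating enzyme (chromosome 9, 107852704 to 107861262), had the lowest level of the 10 genes, with 24.2, 25.3 and 21.6 TPM in Ctrl and 42.9, 40.9 and 43 TPM in Nfkbiz KO. Its log2 fold change was 0.73 ± 0.057 (SE; edgeR adjusted p = 8.8e-07). Ube2l6, the conjugating enzyme (chromosome 2, 84628630 to 84640783), had 210.3, 220.3 and 219 TPM in Ctrl and 383, 374 and 393 TPM in Nfkbiz KO, with the same log2 fold change of 0.73 ± 0.055 (SE). Neither gene overlapped between the groups, and the carrier was the most tightly reproduced of the 10 in Ctrl, with a coefficient of variation of 2.49%.

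Herc6, the ligase, had the largest increase of the 10. It lies on chromosome 6 from 57557932 to 57642597 and had 31.1, 34.2 and 28.6 TPM in Ctrl and 66, 65 and 66.2 TPM in Nfkbiz KO. The log2 fold change was 0.96 ± 0.054 (SE; edgeR adjusted p = 5.7e-08), with a 95% confidence interval from 0.84 to 1.07 that holds the fold change of 2. Of all genes tested, 3.02% had a larger log2 fold change. Only 77.7% of its reads mapped to a single place, the lowest share of the 10, and with uniquely mapped reads the log2 fold change was again 0.96. It shares 1269 exon bases with Gm45193 on the same strand, whose log2 fold change was 0.17 (adjusted p = 0.79, edgeR). It passed the thresholds of the study on log2(TPM + 1), where the difference was 1.05 (adjusted p = 0.0005, limma), and again without Ctrl replicate 2 (adjusted p = 1.1e-07, edgeR).

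Usp18, the protease that reverses the modification, rose too, so that transcripts for both arms of the cycle were higher. It lies on chromosome 6 from 121222848 to 121247877 and had 314, 326 and 299 TPM in Ctrl and 501, 488 and 517 TPM in Nfkbiz KO. The log2 fold change was 0.59 ± 0.052 (SE; edgeR adjusted p = 2.5e-06), and 95.7% of its reads were unique. In both groups it was the second most abundant of the 10, above the 3 enzymes of conjugation.

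**Figure D2:**
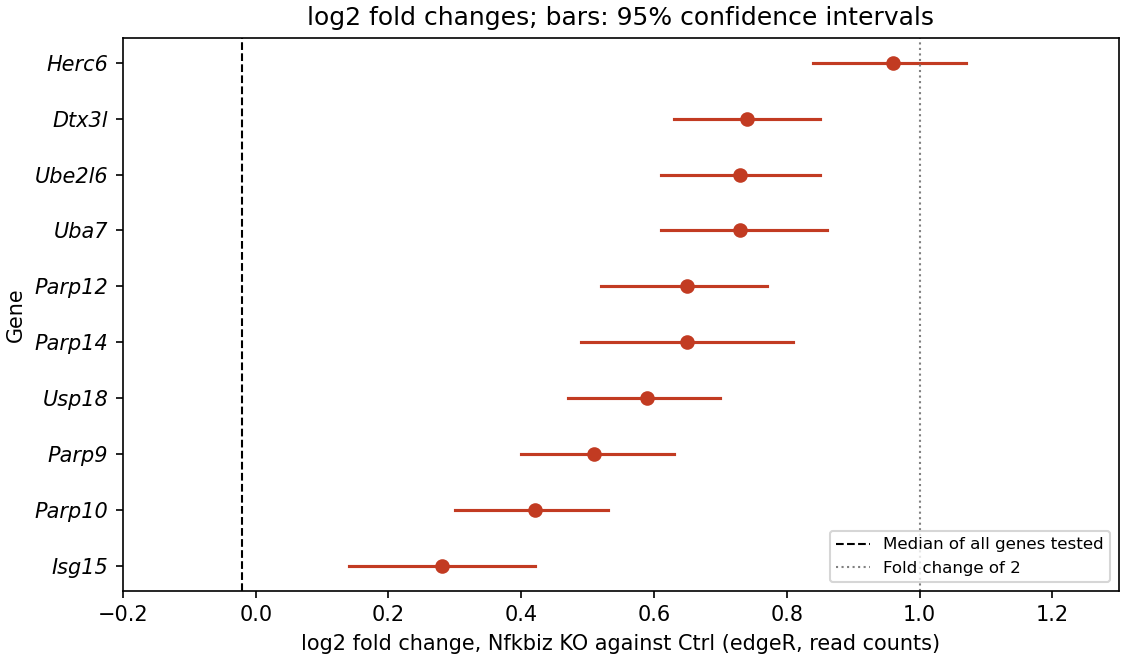
log2 fold changes of the 10 genes in Nfkbiz KO against Ctrl from read counts (edgeR), with 95% confidence intervals as bars, the median of all genes tested (-0.02) as a dashed line and a fold change of 2 as a dotted line. Every interval lies above 0, the lowest bound being 0.14 for Isg15, and only that of Herc6 reaches a fold change of 2.

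The balance between the transcripts of modifier and conjugating enzymes also differed between the groups. This ratio was chosen after the values were seen. Isg15 TPM divided by the summed TPM of Uba7, Ube2l6 and Herc6 was 8.85, 8.32 and 9.22 in Ctrl and 6.31, 6.56 and 6.08 in Nfkbiz KO, without overlap (p = 0.1 by exact permutation, two-sided, the lowest attainable). Isg15 reads per Usp18 read fell likewise from 1.78, 1.7 and 1.99 in Ctrl to 1.47, 1.54 and 1.41 in Nfkbiz KO (p = 0.1, same exact test). Such ratios need no scaling between samples. Of the summed TPM of the 10 genes, Isg15 held 67.2% to 70.9% in Ctrl and 62.4% to 64.1% in Nfkbiz KO.

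Next, the PARP genes and Dtx3l were examined. Together these 5 genes had a summed level of 516, 529.9 and 451 TPM in Ctrl and 818, 799 and 818 TPM in Nfkbiz KO. Their log2 fold changes lay between 0.42 and 0.74, with a median of 0.65.

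Parp9 and Dtx3l encode partner proteins from opposite strands of chromosome 16 in GRCm39, Parp9 from 35758840 to 35792980 on the plus strand and Dtx3l from 35746881 to 35759521 on the minus strand. Parp9 had 95.6, 101 and 86.3 TPM in Ctrl and 145, 141 and 149 TPM in Nfkbiz KO. This amounted to a log2 change of 0.51 ± 0.052 (SE; edgeR adjusted p = 9.1e-06). Dtx3l had 66.1, 72 and 62.2 TPM in Ctrl and 119, 121 and 119 TPM in Nfkbiz KO. This amounted to a log2 change of 0.74 ± 0.05 (SE; edgeR adjusted p = 2.5e-07). Both rose without overlap between the groups, and Dtx3l was the most reproducible of the 10 in Nfkbiz KO, with a coefficient of variation of 0.83%. The number of Parp9 reads per Dtx3l read was 1.27, 1.24 and 1.24 in Ctrl and 1.08, 1.03 and 1.1 in Nfkbiz KO, so that the ratio was lower in all 3 Nfkbiz KO samples (p = 0.1 by exact permutation, two-sided, the lowest attainable, for a ratio chosen after its values were seen). The annotated starts of the 2 genes lie 681 bases apart and their exons share 458 bases. Reads were counted without regard to strand, so that reads in this stretch cannot be assigned to one of the partners.

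**Figure D3:**
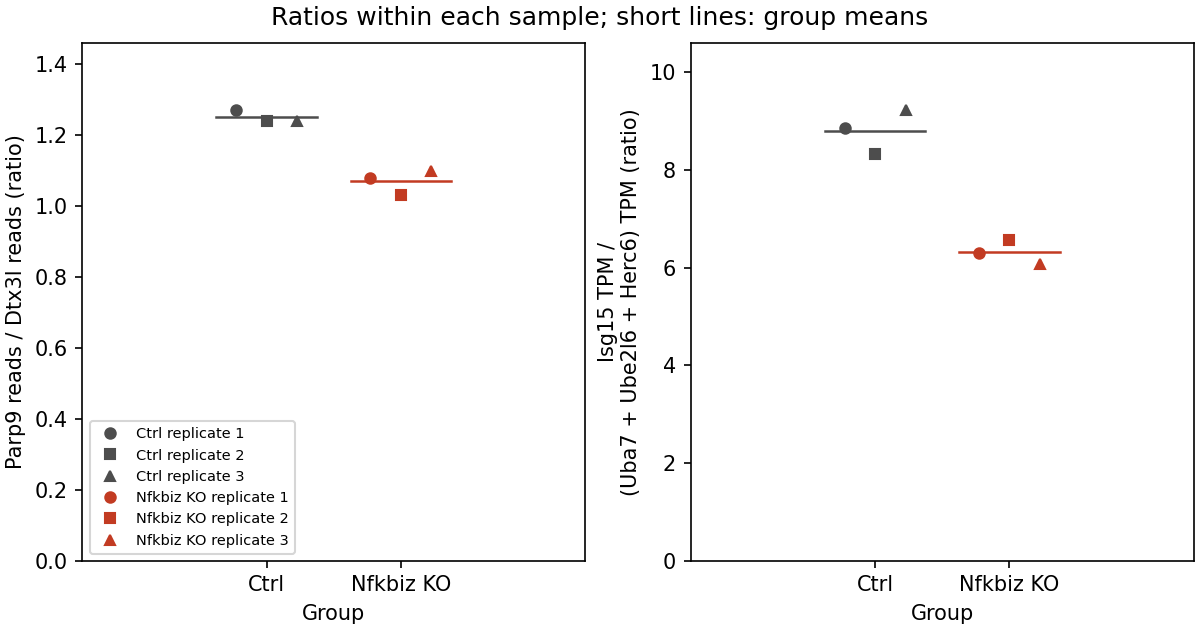
Ratio of Parp9 to Dtx3l reads (left) and of Isg15 TPM to the summed TPM of Uba7, Ube2l6 and Herc6 (right) in each sample, with group means as short lines and both axes starting at 0. Both ratios are lower in the 3 Nfkbiz KO samples, from a mean of 1.25 to 1.07 on the left and from 8.8 to 6.32 on the right.

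Parp14, a mono-ADP-ribosyltransferase with macrodomains, lies on the same stretch of chromosome 16 from 35653231 to 35692003. It had 78.7, 85.1 and 62.3 TPM in Ctrl and 127, 123 and 127 TPM in Nfkbiz KO. It varied most among Ctrl samples, with a coefficient of variation of 15.5% that came from the low replicate 3, but even the highest Ctrl value was below all Nfkbiz KO values. The log2 fold change was 0.65 ± 0.073 (SE; edgeR adjusted p = 2.1e-05) and 0.56 without Ctrl replicate 3. Parp14 reads per Dtx3l read were 1.97, 1.99 and 1.69 in Ctrl and 1.81, 1.72 and 1.8 in Nfkbiz KO, which overlapped (two-sided exact permutation test, p = 0.4).

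The tested genes that flank these 3 were also looked at. Of the 3 nearest on each side that overlap none of them, 0 rose and 1 fell. Among all genes tested, 18.2% rose and 18.4% fell, and so few neighbours cannot be told apart from these shares. Gm15564, a non-coding RNA gene that overlaps Parp9 on the other strand, was left out of these neighbours. It had a log2 fold change of 0.18 (adjusted p = 0.77, edgeR). Hspbap1, on the side of Parp14, had a log2 fold change of -0.29 (adjusted p = 0.0501, edgeR), and Slc49a4 and Pdia5, further out, had -0.18 and 0.02. Kpna1, an importin gene next to Parp9, had 0.08 (adjusted p = 0.378, edgeR) and Wdr5b 0.09. Fam162a, known as a gene induced by hypoxia, fell from 469.9 ± 57.8 TPM in Ctrl to 226 ± 4.87 TPM (SD, n = 3 each), with a log2 fold change of -1.14 (adjusted p = 6.01e-07, edgeR). Nfkbiz lies 19.8 Mb away on the same chromosome.

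**Figure D4:**
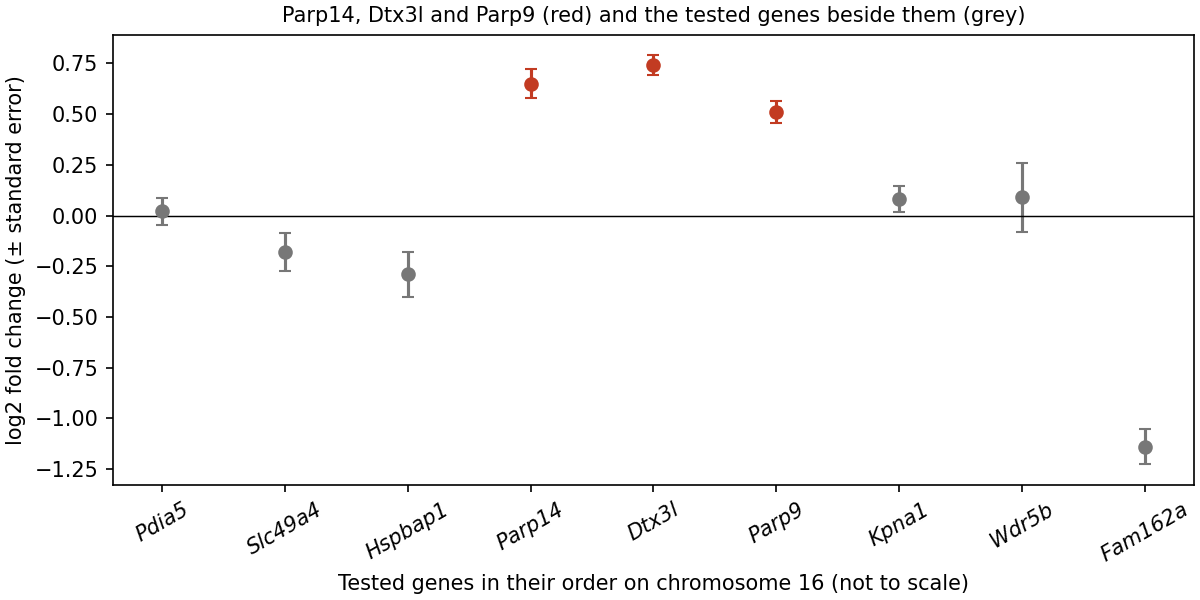
log2 fold changes with standard errors of Parp14, Dtx3l and Parp9 (red) and of neighbouring genes (grey), in their order on chromosome 16 and not to scale. The grey genes are the 3 nearest tested genes on each side that overlap none of the red ones. The 3 red genes lie between 0.51 and 0.74, whereas the grey genes lie between -1.14 and 0.09.

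Parp12 and Parp10 lie elsewhere in the genome. Parp12, which carries zinc fingers and is known to restrict viruses (chromosome 6, 39063342 to 39095573), had 192, 192 and 164 TPM in Ctrl and 310.4, 303 and 307 TPM in Nfkbiz KO. It was the most abundant of the PARP genes in both groups and its log2 change was 0.65 ± 0.057 (SE; edgeR adjusted p = 2.5e-06). Parp10, a mono-ADP-ribosyltransferase (chromosome 15, 76115374 to 76127648), had 83.3, 80 and 76.5 TPM in Ctrl and 116, 111 and 116 TPM in Nfkbiz KO. This amounted to a log2 change of 0.42 ± 0.053 (SE; edgeR adjusted p = 6.4e-05). The increase of Parp10 was the smallest among the PARP genes. It shares 205 exon bases with Plec on the same strand, which had a log2 fold change of 0.27 (adjusted p = 0.014, edgeR), and Parp12 shares 267 with the antisense gene 4930599N23Rik, with 0.58 (adjusted p = 0.0043, edgeR). How such shared reads were assigned was not tested.

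The order of the 10 levels was nearly kept. In Ctrl it ran from Isg15 over Usp18, Ube2l6, Parp12, Parp9, Parp10, Parp14, Dtx3l and Herc6 to Uba7, and the values of Parp10 and Parp14 and those of Parp14 and Dtx3l overlapped. In Nfkbiz KO, Parp10 had moved below Parp14 and Dtx3l, and no neighbours in the order overlapped. Across the 10 genes, the mean level in Ctrl and the log2 fold change had a Spearman's rho of -0.62, a description of genes measured in the same 6 libraries. The samples of Nfkbiz KO were closer together than those of Ctrl in all 10 genes. The coefficients of variation were 0.83% to 2.96% against 2.49% to 15.5%. How often this held over all genes tested was not counted, so it is not shown to be particular to these 10. Outside them, Jak1 had 10.3% in Ctrl and 2.63% in Nfkbiz KO, whereas Irf3 had 5.43% and 7.15%.

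To see whether related enzymes moved with them, the families around these genes were compared. Other interferon-stimulated genes rose as well, 29 of 30, beside 18.2% of all genes tested, with a median log2 fold change of 0.67. Mx1, an antiviral GTPase, rose from 13.7 ± 1.79 to 44.4 ± 1.97 TPM (SD, n = 3 each) with a log2 fold change of 1.65, and Ifit2 and Ifit3, which encode antiviral tetratricopeptide proteins, had 1.43 and 1.26. All 3 exceeded the largest value of the 10 genes, 0.96. The gene that did not pass was Bst2, at 0.17 (adjusted p = 0.066, edgeR).

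For the other ubiquitin-like systems, the counts stand beside 18.2% of all genes tested that rose and 18.4% that fell. On read counts, of 13 tested genes of ubiquitin and related modifiers, 1 rose and 6 fell, with a median of -0.17, and on log2(TPM + 1) 1 rose and 2 fell (limma). Among the lower ones were Fau (-0.44), Ubl5 (-0.40) and Rps27a (-0.32), of which Fau and Rps27a encode fusions with ribosomal proteins. Each of these had its highest Ctrl value in Ctrl replicate 3. There Fau had 775 CPM, beside 646 and 552 in the other Ctrl samples, and Rps27a 859.8, beside 635 and 622. The part of this replicate in their decreases was not tested. Ubd, the gene of the interferon-responsive modifier FAT10, had too few reads to be tested, with 3, 1 and 2 in Ctrl and 8, 9 and 16 in Nfkbiz KO. Of 9 other activating enzymes, 0 rose and 1 fell, where Uba7 had 0.73, but on log2(TPM + 1) 2 rose and 0 fell (limma). Among 31 tested genes with a Ube2 name besides Ube2l6, 2 rose and 8 fell, with a median of -0.10. On log2(TPM + 1), 3 rose and 3 fell (limma). They were taken by name and not checked for conjugating function, and names with a letter after the last digit were not taken in. The largest value, 2.33 for Ube2ql1, rested on a mean level of 0.0821 ± 0.119 TPM in Ctrl, against 0.453 ± 0.141 in the knockout (SD, n = 3 each), whereas Ube2d1, Ube2g2 and Ube2h fell with -0.37, -0.31 and -0.29.

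The HERC, Deltex and USP relatives were counted in the same way, beside 36.6% of all genes tested that passed and 18.2% that rose. Of 6 genes in the list of other HERC genes and further ISG15 ligases, only Trim25 rose, at 0.35, and it is itself interferon-inducible. Herc1, Herc2, Herc3 and Herc4 had log2 fold changes from -0.16 to 0.05. Of 3 tested Deltex genes, 0 passed, with values from -0.14 to 0.07, where Dtx3l had 0.74. Of 46 tested genes with a Usp name besides Usp18, 11 rose and 3 fell, with a median of 0.04. They were taken by name and not checked for protease function, and Usp6nl (0.25) was among those that rose. The largest changes among them were those of Usp43 (-1.13), Usp17la (0.99), Usp35 (-0.82) and Usp24 (0.60), of which only Usp24, at means of 31.3 ± 6.8 and 51.4 ± 1.17 TPM (SD, n = 3 each), was above 4 TPM on average.

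**Figure D5:**
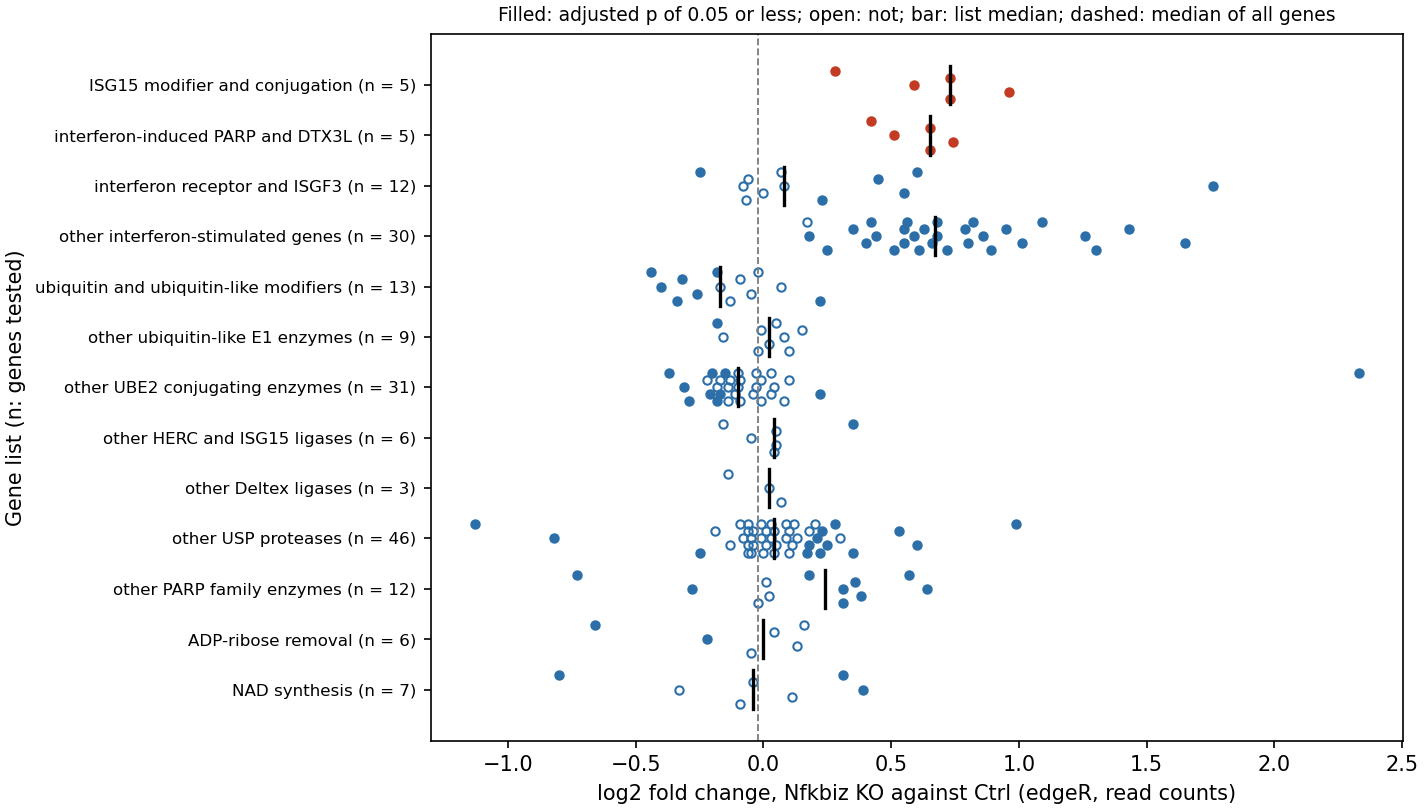
log2 fold change of each tested gene (edgeR, read counts) in the 2 groups described here (red) and in the related gene lists (blue), with filled points at an adjusted p of 0.05 or less, bars for list medians and a dashed line for the median of all genes. The red genes and the other interferon-stimulated genes lie around medians of 0.73, 0.65 and 0.67, whereas the medians of the other lists lie between -0.17 and 0.24.

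The remaining PARP family held genes that rose and genes that fell. Of 12 tested genes, 7 rose and 2 fell, with a median of 0.24, beside 18.2% and 18.4% of all genes tested. On log2(TPM + 1), 7 rose and 0 fell (limma). Parp11 rose from 39.1 ± 3.74 to 65.1 ± 1.58 TPM (SD, n = 3 each, with 0.64 on the log2 scale) and Parp3, an enzyme of DNA repair, from 88.5 ± 4.67 to 142 ± 3.04 TPM (0.57), in the range of the 10 genes. Tiparp had 0.38 and Zc3hav1, the zinc-finger antiviral protein and inactive PARP relative, 0.36. Parp1, the founding member that responds to DNA breaks, had 0.18 (adjusted p = 0.028, edgeR), while Parp2 had -0.02 (adjusted p = 0.85, edgeR). Parp16 fell at -0.73 (adjusted p = 0.014, edgeR) from a low level of 2.99 ± 0.299 TPM to 1.88 ± 0.712 TPM.

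The call for genes that remove ADP-ribose depended on the scale. On read counts, of 6 tested, 0 rose and 2 fell, beside 18.2% and 18.4% of all genes tested. On log2(TPM + 1), however, 2 rose and 1 fell (limma). Those lower on read counts were Macrod1, a hydrolase of mono-ADP-ribose, from 66.7 ± 0.986 to 44.8 ± 2.97 TPM (SD, n = 3 each; log2 fold change -0.66, adjusted p = 1.1e-05, edgeR), and Oard1 at -0.22. Parg, which degrades poly-ADP-ribose chains, had 0.13 (adjusted p = 0.099, edgeR). Of 7 tested genes of NAD synthesis, which supplies the PARP enzymes, 2 rose and 1 fell on read counts, beside the same shares of all genes. Nampt, the enzyme of the salvage route, rose from 114 ± 10.5 to 149.5 ± 3.72 TPM (0.31), Nadsyn1 had 0.39 and Nmnat3 -0.80.

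Finally, the receptor and transcription factors through which interferon acts were examined. Of 12 genes, 5 rose and 1 fell, beside 18.2% and 18.4% of all genes tested, with a median log2 fold change of 0.08. Ifnb1, the gene of interferon-β, was low, at 1.56, 2.35 and 0.908 TPM in Ctrl and 4.9, 3.72 and 5.17 TPM in Nfkbiz KO. All Nfkbiz KO values were higher, and its log2 change was 1.76 (adjusted p = 0.00042, edgeR). Ifnar2, a receptor chain, fell at -0.25, while Ifnar1 had -0.07, and the receptor kinases Jak1 and Tyk2 had -0.00 and -0.08. Of ISGF3, the factor that binds the ISRE, the subunit gene Stat2 rose with 0.23, whereas Irf9 had 0.08 (adjusted p = 0.26, edgeR). Irf7 (0.55) and Irf1 (0.45) rose as well, and Irf3 and Socs1 had -0.06 and 0.07, neither of which passed.

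Genes outside the 10 that followed the same course over the 6 samples were also looked up. The 5 with the highest Pearson correlation of log2 CPM with the mean profile of the 10 genes were Plau, Daxx, Apod, Wdr43 and Ngef, with r from 0.9995 down to 0.9992 and log2 fold changes of 0.58, 0.67, 2.31, 0.33 and 1.61. With 2 groups of 3 samples such values are reached easily, since 1128 of the 14409 other genes (7.83%) had an r of 0.95 or more.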

How the data were processed

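The authors sequenced total RNA (paired-end 150) and mapped it with CLC Genomics Workbench at default settings, counting each read pair once, without strand, with broken pairs ignored. The paper names mouse build GRCm39, whereas the labels name GRCm38; the deposited files hold no coordinates. Coordinates were taken from GENCODE vM39 (GRCm39) by symbol, which covered 96.2% of the genes tested. The authors deposited raw counts per gene (total and unique) and TPM and RPKM, in decimals with a comma, which was converted. RPKM was not used. Total counts were tested with edgeR 4.0.16 in R 4.3.3 (TMM, filterByExpr, quasi-likelihood test, Benjamini-Hochberg adjustment over 14419 genes). A standard error is the log2 fold change divided by the square root of F. Intervals are 95%. The procedure was tested on simulated counts. Alternatives used DESeq2 1.42.0 and limma 3.58.1, among others.

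The 10 genes, the related lists and the tests were chosen with earlier results of these data known. Named are all 10 genes, Nfkbiz, the whole list of interferon receptor and ISGF3 genes, up to 4 genes with the largest change among those passing in each other list, neighbours on chromosome 16 and the 5 most similar profiles. Other genes were named after their values were seen. Some genes of these lists and 1 motif are not reported here. Depth was 32219900 to 44927203 reads, so that a count of 0 allows up to 0.0668 to 0.0931 CPM (3 counts, counting error only). Samples are cultures of 1 line, and p-values measure the spread between these samples. Replicate numbers showed no sign of pairing the samples.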

Additional observations from a re-analysis of the deposited data

How the results depend on the processing

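All 10 genes stayed higher at an adjusted p of 0.05 or less under the 15 alternatives tried, in 150 of 150 values, with log2 fold changes from 0.24 to 1.07 and a largest adjusted p of 0.031 (edgeR, Isg15 without Nfkbiz KO replicate 2). The number of the 10 genes past the thresholds of the study was 0. It was 1 (Herc6) with limma on log2(TPM + 1), 1 on log2(TPM + 0.1), and from 0 to 1 with 1 sample left out. At the less stringent threshold (1.5-fold, adjusted p of 0.1, no difference cut-off) it was 7. The same count over all genes was 258, 854 without the difference cut-off and 1810 at the less stringent threshold. With the replicate number as a block, all 10 genes passed and 5087 genes in all were called, of which 4945 were among the 5274 without it. Same-numbered samples deviated from their group means with correlations of 0.037, -0.023 and 0.026, so that no sign of pairing by number was seen. Differently numbered samples were not compared in this way, and a pairing is not excluded. On the TPM scales, which moved the family counts given with the results, the median of all genes moved to 0.063 and 0.080. A count of exon reads alone was listed as an alternative and was not run. The Ctrl replicate 1 library held most 18S ribosomal RNA, 49320.6 TPM on Rn18s-rs5, and without it the 10 genes still all passed.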
